A study of Homo sapiens with 2 samples.

Results

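Genes of the nuclear receptor family were taken by matching gene symbols to the systematic NR names and to the ESR, ESRR, PPAR, RAR, RXR, ROR, THR, VDR, HNF4 and PGR names, which took 45 of the 25268 symbols measured. The pattern stops at the letter H of the systematic names, so NR1I2 (the pregnane X receptor, PXR) and NR1I3 (the constitutive androstane receptor, CAR) were not among the 45. Not every family member is taken by the pattern. The cells were C4-2B MDVR, a line derived from LNCaP prostate cancer cells that models castration resistance and tolerates the antiandrogen drug enzalutamide. Both groups were held in 20 µM enzalutamide. The DMSO library came from cells given the vehicle for 3 days, and the Indocin library from cells given 20 µM Indocin (indomethacin, a cyclooxygenase inhibitor) for 3 days. Each group was 1 library of 1 line, so no difference below has an error or a test across cultures.

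Nuclear receptors are transcription factors that bind DNA through a zinc finger domain and small lipid-soluble ligands through a separate domain. Steroid receptors act mainly as homodimers, whereas receptors for retinoic acid, thyroid hormone, vitamin D, fatty acids and oxysterols act as heterodimers with a retinoid X receptor (RXR). Orphan receptors have no established natural ligand or act without one. Retinoic acid and vitamin D receptors are known to act on growth and differentiation of prostate epithelial cells. Indomethacin is known to bind the fatty acid receptor PPARG directly at concentrations above those that inhibit cyclooxygenases.

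Levels were FPKM (fragments scaled to transcript length and library size), on which genes can be set side by side, and the read depth was unknown. Where 2 values are joined by "and", the DMSO library comes first. All values summed to 617510 and 583096 FPKM, and the genes whose mean was 1 FPKM or more had a median of 12.5 and 12.3 FPKM. All 9 luminal prostate markers were above 1 FPKM in both libraries, and their levels summed to 2134 and 1698 FPKM. Of the 9, 7 were lower in the Indocin library and the part of this in the receptor values was not tested. Of 3 basal markers the sum was 0.545 and 0.352 FPKM, with KRT5 and TP63 listed at 0 in the DMSO library. The 5 neuroendocrine markers summed to 33.7 and 32.4 FPKM, nearly all from ENO2, and CHGA and INSM1 were under 0.1 FPKM. Of the stromal, immune and endothelial markers only COL1A1 and CD68 reached a mean of 1 FPKM. With bulk RNA, fewer cells with a transcript and less transcript per cell cannot be told apart.

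Of the 45 receptors 22 were expressed, meaning that the mean of both libraries was 1 FPKM or more. Another 6 were low, with a mean from 0.1 to under 1 FPKM, and 17 were silent at this depth, with a mean under 0.1 FPKM. Among the silent genes 4 were listed at 0 in both libraries (NR0B1, NR1H4, NR2E1 and RXRG) and 4 in 1 library (NR0B2, NR5A1, RORB and ESR1). A listed 0 was read as a value and not as absence. There was a gap between the lowest expressed receptor, PPARA, with a mean of 3.43 FPKM, and the highest low one, NR6A1, with 0.937 FPKM. Summed over the 45 genes, receptor transcripts stood at 414 and 378 FPKM. The order of levels was nearly the same in both libraries, with a Spearman correlation of 0.956 over the 22 expressed receptors. It is given as a description, since both libraries share the line and the gene lengths.

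**Figure D1:**
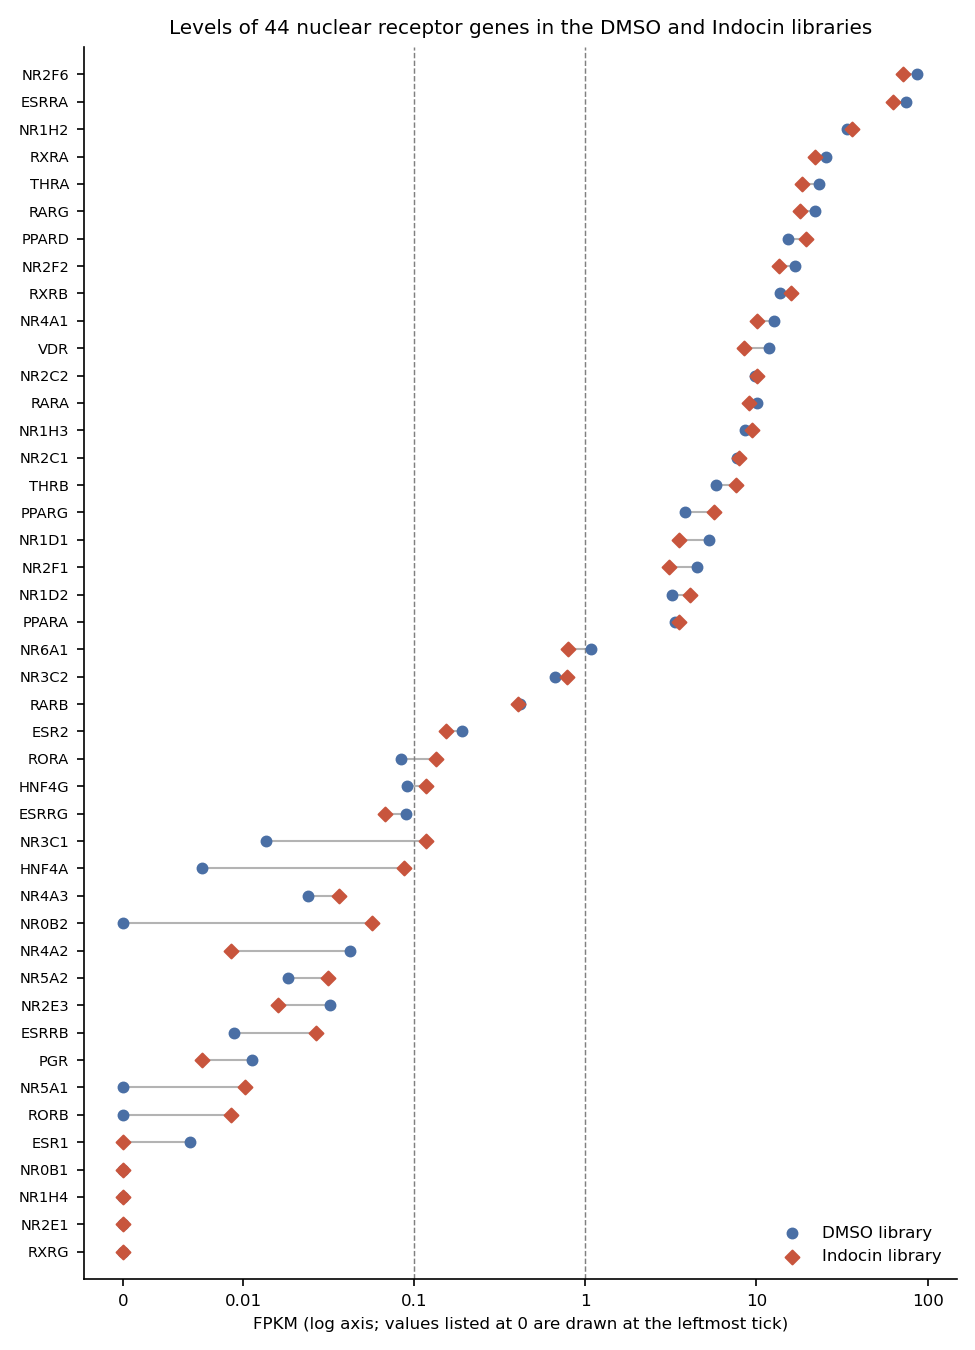
FPKM of the receptor genes (rows, ordered by mean, all 45 but 1) in the DMSO library (circles) and the Indocin library (diamonds) on a log axis, with values of 0 drawn at the leftmost tick and dashed lines at 0.1 and 1 FPKM. The expressed receptors drawn lie right of 1 FPKM in both libraries with small gaps between the symbols, and the wide gaps, as for NR3C1, HNF4A and NR0B2, are found among the silent genes.

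The 5 steroid receptors of the set were hardly detected. NR3C1, the glucocorticoid receptor, stood at 0.0137 and 0.117 FPKM. ESR1, the main estrogen receptor, stood at 0.00488 and 0 FPKM, and PGR, the progesterone receptor, at 0.0113 and 0.00579 FPKM. The mineralocorticoid receptor NR3C2 was the highest of these at 0.661 and 0.780 FPKM, and the second estrogen receptor, ESR2, stood at 0.190 and 0.153 FPKM. Summed, the 5 genes held 0.881 and 1.06 FPKM, which is 0.213% and 0.280% of the summed receptor level. NR3C1 and HNF4A, the hepatocyte nuclear factor (0.00573 and 0.0868 FPKM), were the silent genes listed in both libraries that were furthest apart in FPKM. Both were higher in the Indocin library, yet their log2 ratios with 1 FPKM added were only 0.14 and 0.11. Some values at such levels lay on a coarse grid. For ESR2, ESRRB, NR2E3, NR4A2 and NR4A3 the Indocin to DMSO ratio in FPKM lay within 1% of 1.014 times a ratio of whole numbers up to 5, for example 3 to 1 for ESRRB (0.00880 and 0.0266 FPKM) and 1 to 5 for NR4A2 (0.0420 and 0.00853 FPKM). The factor 1.014 was the one that took most of 1335 genes with a mean under 0.05 FPKM, 50.7% of them, against a median of 4.27% over the factors tried. ESR2, with a mean of 0.171 FPKM, lay above that range. The other receptors with a mean under 1 FPKM and values above 0 in both libraries did not match. Among these, NR3C1 and HNF4A had ratios in FPKM of 8.56 and 15.1, beyond the ratios tried.

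Orphan receptors without a classical hormone were the highest of the 45. NR2F6 (EAR2), a COUP family repressor, stood at 87.1 and 71.6 FPKM. ESRRA, the estrogen-related receptor alpha, which controls mitochondrial genes, stood at 74.7 and 62.9 FPKM. Together these 2 genes held 39.1% and 35.6% of the summed receptor level. NR2F2 (COUP-TFII) stood at 16.8 and 13.5 FPKM and NR2F1 (COUP-TFI) at 4.52 and 3.09 FPKM. All 3 COUP genes and ESRRA were lower in the Indocin library, as were 55.2% of all genes averaging 1 FPKM or more. NR2F1 had the lowest Indocin to DMSO ratio of the 4 receptors. The testicular receptors NR2C2 (TR4) and NR2C1 (TR2), which bind DNA as a pair, stood at 9.77 and 10.1 FPKM and at 7.69 and 7.95 FPKM. Their ratio to each other was 1.27 in both libraries. The other estrogen-related receptors, ESRRB and ESRRG, were silent, and so were the photoreceptor and forebrain receptors NR2E3 and NR2E1.

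Among the retinoid X receptors RXRA stood at 25.4 and 22.1 FPKM, and RXRB at 13.7 and 16.0 FPKM. RXRG, the form of muscle and brain, was listed at 0 in both. The RXR sum was thus 39.0 and 38.1 FPKM. The 12 listed receptors that pair with RXR (3 RAR, 2 THR, VDR, 3 PPAR and 3 NR1H genes) summed to 138 and 137 FPKM. The partner sum was 3.55 and 3.58 times the RXR sum. These near-equal sums hold members that differed in both directions.

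Receptors for retinoic acid, thyroid hormone and vitamin D were lower with Indocin in 4 of 5 expressed cases. Of all genes averaging 1 FPKM or more, 55.2% were lower. The count of 4 held when the upper quartiles or the sums of the libraries were made equal, called the rescalings from here on. Under these the median log2 ratio of all genes, with 1 FPKM added, was 0.04 and 0.05. For RARA the ratio was -0.16, next to the lower quartile of all genes (-0.15), and -0.09 and -0.08 under the rescalings. The vitamin D receptor VDR stood at 11.9 and 8.50 FPKM. RARG, the main retinoic acid receptor here, stood at 22.1 and 17.9 FPKM, RARA at 10.1 and 8.99 FPKM, and RARB, which is itself induced by retinoic acid in many cells, was low at 0.416 and 0.405 FPKM. THRA, the thyroid hormone receptor alpha, stood at 23.3 and 18.5 FPKM. THRB, the beta form, went the other way with 5.80 and 7.56 FPKM. The 6 genes held 17.8% and 16.4% of the summed receptor level.

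The 5 expressed sensors of fatty acids and oxysterols had log2 ratios from 0.06 to 0.47, computed with 1 FPKM added, and none reached 1.5-fold. NR1H2 (0.10), NR1H3 (0.13) and PPARA (0.06) lay close to 0.11, the upper quartile of all genes, or under it. PPARG stood at 3.82 and 5.67 FPKM, the highest ratio of the 22 at 1.48-fold without a pseudocount. PPARD, the broadly expressed form, stood at 15.2 and 19.6 FPKM, and PPARA, the form of fatty acid oxidation in liver, at 3.34 and 3.53 FPKM. The oxysterol receptors NR1H2 (LXR beta) and NR1H3 (LXR alpha) stood at 33.8 and 36.4 FPKM and at 8.52 and 9.41 FPKM. NR1H4, the bile acid receptor FXR, was listed at 0 in both libraries. The share of the summed receptor level held by these 6 genes was 15.6% and 19.8%, the largest gain of any of the 11 role groups.

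The REV-ERB repressors of the clock differed from each other. NR1D1 (REV-ERB alpha) stood at 5.28 and 3.55 FPKM, and NR1D2 (REV-ERB beta) at 3.19 and 4.10 FPKM, so NR1D1 was the higher in the DMSO library and NR1D2 in the Indocin library. RORA was low at 0.0839 and 0.134 FPKM and RORB silent. NR4A1 (NUR77), an immediate early gene, stood at 12.7 and 10.1 FPKM, while its paralogs NR4A2 and NR4A3 were silent. NR6A1, the germ cell nuclear factor, was low at 1.08 and 0.795 FPKM, and NR5A1 and NR5A2, which govern steroidogenic and liver genes, were silent. NR0B1 and NR0B2 lack the DNA-binding domain and repress other receptors. NR0B1 was listed at 0 in both libraries, and NR0B2 stood at 0 and 0.0563 FPKM. HNF4G was low at 0.0906 and 0.117 FPKM.

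The ratio of the libraries was computed as log2((Indocin FPKM + 1)/(DMSO FPKM + 1)), which understates differences of genes with low values. None of the 22 expressed receptors was at least 1.5-fold higher, where 2.19% of all 11965 genes averaging 1 FPKM or more were, and none was 1.5-fold lower, where 0.744% were. None reached 2-fold either, against a background of 0.752% higher and 0.0418% lower. The highest were PPARG (0.47), PPARD (0.34), THRB (0.33) and NR1D2 (0.28). The lowest were NR1D1 (-0.46), VDR (-0.44), NR2F1 (-0.43), THRA (-0.31), NR4A1 (-0.30), NR2F2 (-0.30), RARG (-0.30) and NR2F6 (-0.28). These 12 genes were past 1.2-fold, a threshold added after it was seen that none passed 1.5-fold. Thus 4 of 22 (18.2%) were 1.2-fold higher, against 9.90% of all genes, and 8 of 22 (36.4%) were 1.2-fold lower, against 11.7%. The split depended on the scale of the libraries. With equal upper quartiles 5 were higher (22.7%, against 14.8% of all genes) and 3 lower (13.6%, against 7.0%), and the counts were the same with equal sums.

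Of the 22 ratios 11 were above 0 and 11 below, where 55.2% of all genes were below. Their median was -0.06 (quartiles -0.30 and 0.12), and that of all genes was -0.02 (quartiles -0.15 and 0.11). The median size of the ratio without its sign was 0.28 among the receptors and 0.13 among all genes. The scalings tried (centring, equal upper quartiles and equal sums) all shift ratios upward, and none of the 11 below 0 turned to above 0 under them. Without replicates it was not tested whether this wider spread exceeds that between cultures given the same treatment.

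**Figure D2:**
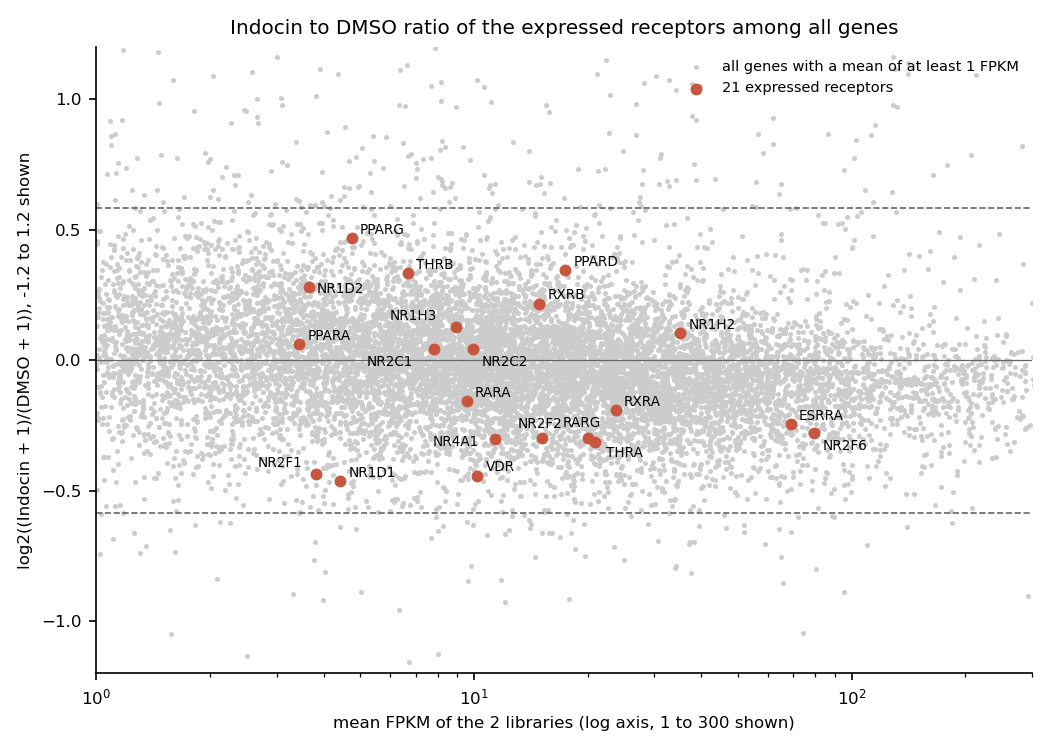
Log2 ratio of Indocin to DMSO FPKM (1 FPKM added) against the mean FPKM of the 2 libraries on a log axis, for all genes (grey) and the expressed receptors (red, named, all 22 but 1) within the axis ranges stated on the plot, with dashed lines at 1.5-fold. All drawn receptors lie between the dashed lines, from NR1D1 at -0.46 to PPARG at 0.47.

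Paralogs of the same receptor type differed in opposite directions in 3 pairs. The ratio of the levels of a pair inside a library does not depend on how libraries are scaled. THRA was 4.02 times THRB with DMSO and 2.45 times with Indocin, a log2 change of -0.71. NR1D1 was 1.65 times NR1D2 and then 0.866 times, a change of -0.93, so the order of the pair was reversed. RXRA was 1.86 times RXRB and then 1.38 times, a change of -0.43. Other pairs kept a nearly constant ratio: NR1H2 was 3.97 and 3.87 times NR1H3, and NR2F6 5.18 and 5.32 times NR2F2. Between these lay PPARD against PPARG (3.99 and 3.46 times), PPARD against PPARA (4.57 and 5.56), NR2F2 against NR2F1 (3.72 and 4.36) and RARG against RARA (2.19 and 1.99).

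**Figure D3:**
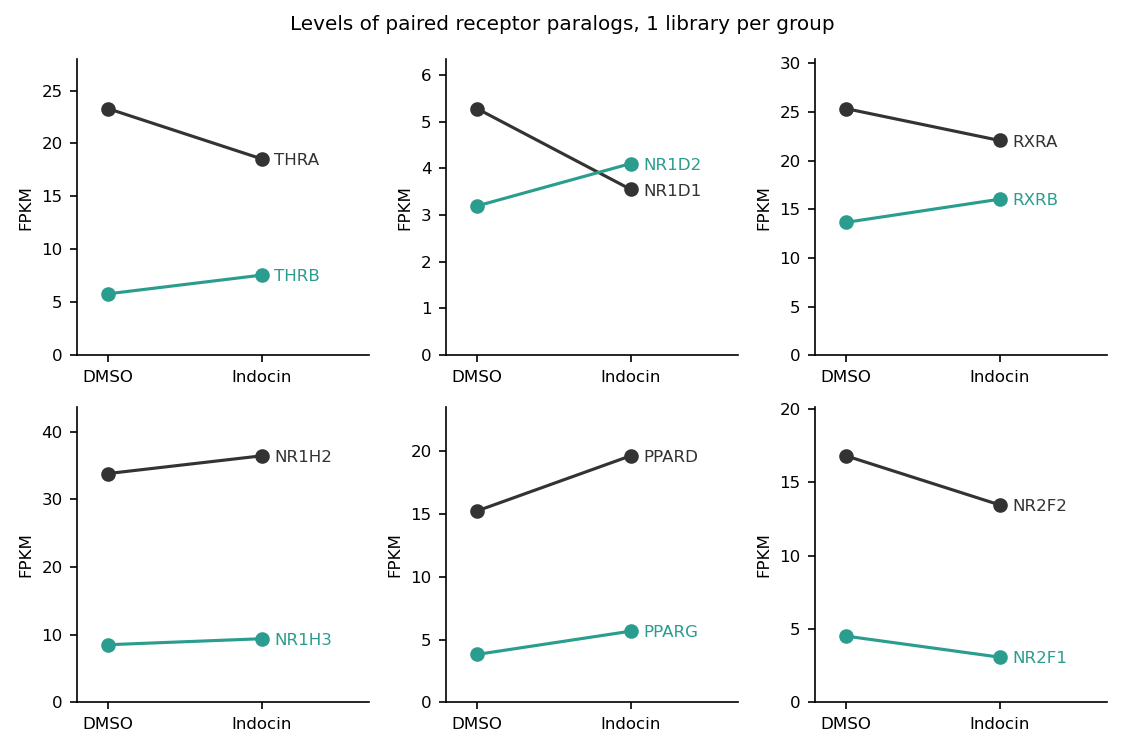
FPKM of 6 pairs of receptor paralogs in the DMSO and Indocin libraries, 1 point per library, each vertical axis starting at 0. The lines of THRA and THRB, NR1D1 and NR1D2, and RXRA and RXRB converge or cross, while both members of the other pairs move the same way.

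THRA and NR1D1 are also neighbours in the genome, and so are THRB and NR1D2. In the RefSeq annotation of GRCh38.p14, THRA and NR1D1 follow each other on chromosome 17 with 0 coding genes between them and RARA lies 5 coding genes further. NR1D2, THRB and RARB follow each other on chromosome 3 with 0 coding genes between them. The log2 ratios were -0.31, -0.46 and -0.16 for the genes on chromosome 17 and 0.28, 0.33 and -0.01 for those on chromosome 3. All 3 were below 0 on the former, as were 55.2% of all genes, and RARA lay next to the lower quartile of all genes (-0.15). On the latter, NR1D2 and THRB were above 0 and RARB was low. THRA and NR1D1 share sequence at their 3′ ends on opposite strands: 263 exonic bases overlap in GENCODE 29 (4.24% of the THRA and 9.49% of the NR1D1 exonic bases). The kit kept strand, but the strand setting of the counting is not given in the sources used here, so part of the reads of this pair may be assigned to the wrong gene. The part of this overlap in the difference between the pairs was not tested. Other expressed receptors with exonic overlap on the opposite strand were ESRRA with TRMT112 (11.6% of its exonic bases), RARA with RARA-AS1 (13.4%), NR2C2 with MRPS25 (8.83%) and NR1H3 with ACP2 (5.39%).

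The promoters of these 4 genes are shown because the pairs differed in opposite directions. Each sequence is the 250 bases before a RefSeq transcription start (build GRCh38.p14, the files having been made on GRCh37 or hg19), 5′ to 3′ on the strand of the gene. Capitals mark matches, on either strand, to the GC box GGGCGG, the TATA box TATAAA, the E-box CACGTG, the cAMP response element TGACGTCA, the amino acid response element TGATGNAAT of ATF4 or the receptor hexamer AGGTCA, and neighbouring matches can overlap.
THRA, chr17:40062715-40062964, plus strand: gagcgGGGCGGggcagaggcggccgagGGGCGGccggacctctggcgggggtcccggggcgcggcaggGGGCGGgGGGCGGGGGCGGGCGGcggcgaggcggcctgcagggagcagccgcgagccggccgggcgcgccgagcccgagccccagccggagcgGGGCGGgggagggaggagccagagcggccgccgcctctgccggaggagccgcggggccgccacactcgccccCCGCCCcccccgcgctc
NR1D1, chr17:40100590-40100839, minus strand: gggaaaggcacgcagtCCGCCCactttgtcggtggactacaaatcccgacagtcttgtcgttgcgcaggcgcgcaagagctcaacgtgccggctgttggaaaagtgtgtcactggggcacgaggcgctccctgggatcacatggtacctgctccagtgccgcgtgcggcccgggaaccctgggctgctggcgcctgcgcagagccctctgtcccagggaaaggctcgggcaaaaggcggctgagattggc
THRB, upstream start, chr3:24495709-24495958, minus strand: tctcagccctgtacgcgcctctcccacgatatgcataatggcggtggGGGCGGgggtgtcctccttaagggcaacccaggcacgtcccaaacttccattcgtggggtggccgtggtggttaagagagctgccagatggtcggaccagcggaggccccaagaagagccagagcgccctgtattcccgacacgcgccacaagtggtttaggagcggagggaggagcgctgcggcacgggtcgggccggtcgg
THRB, downstream start, chr3:24494851-24495100, minus strand: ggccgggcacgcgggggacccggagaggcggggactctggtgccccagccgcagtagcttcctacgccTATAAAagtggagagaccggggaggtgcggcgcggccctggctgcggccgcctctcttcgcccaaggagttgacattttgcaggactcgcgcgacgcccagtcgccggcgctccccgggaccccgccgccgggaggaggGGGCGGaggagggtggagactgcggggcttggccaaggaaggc
NR1D2, upstream start, chr3:23945036-23945285, plus strand: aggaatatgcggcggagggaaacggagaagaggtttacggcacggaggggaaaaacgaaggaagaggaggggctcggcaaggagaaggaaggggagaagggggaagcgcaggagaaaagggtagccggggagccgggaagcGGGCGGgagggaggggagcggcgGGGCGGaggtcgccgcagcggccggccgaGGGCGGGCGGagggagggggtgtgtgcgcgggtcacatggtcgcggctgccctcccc
NR1D2, downstream start, chr3:23945871-23946120, plus strand: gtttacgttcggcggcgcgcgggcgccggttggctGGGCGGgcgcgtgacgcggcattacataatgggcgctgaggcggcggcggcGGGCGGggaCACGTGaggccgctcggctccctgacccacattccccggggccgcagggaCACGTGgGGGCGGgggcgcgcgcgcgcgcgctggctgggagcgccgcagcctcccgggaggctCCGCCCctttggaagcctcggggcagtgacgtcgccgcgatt

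The THRA promoter held 8 GC boxes in a sequence of 87.2% G and C, against 1 GC box and 64.8% in NR1D1. The downstream THRB start had 1 TATA box, and the upstream one had none. The downstream NR1D2 start had 2 E-boxes, the element of CLOCK and ARNTL. The upstream NR1D2 window and the NR1D1 window had none. None of the 6 windows held a cAMP or amino acid response element or an AGGTCA hexamer in these letters. Across 21607 promoters of the same length, 52.6% held a GC box, 8.93% a TATA box, 7.28% an E-box, 1.96% the cAMP element, 0.616% the amino acid element and 10.6% the hexamer. Among the 93 promoters of the receptors the shares were 50.5%, 8.60%, 6.45%, 2.15%, 1.08% and 16.1%. A match is a run of letters and not a measured binding site.

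Promoter entries were found for 39 of the 45 receptors, and HNF4G, NR0B2, NR2F6, NR4A2 and VDR were among those with none in the table. CpG content was measured as observed over expected CpG in the 250 bases, averaged over the starts of a gene. The median was 0.76 over 19 expressed receptors, 0.70 over 5 low ones and 0.46 over 15 silent ones. Of the expressed receptors 13 of 19 (68.4%) had a value of at least 0.6, and 5 of 15 silent ones (33.3%) did. Among all genes with an entry the medians were 0.81 over 8908 expressed, 0.58 over 1667 low and 0.32 over 4949 silent genes, with 80.8% of the expressed and 26.0% of the silent genes at 0.6 or above. The receptors thus followed the order of the genome, with exceptions in both directions. RXRG (1.0), NR0B1 (0.83) and NR4A3 (1.15) were silent with CpG-rich promoters, and the expressed RARG (0.35), PPARG (0.35), NR1H3 (0.36), NR4A1 (0.42) and NR2F1 (0.42) had CpG-poor ones.

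**Figure D4:**
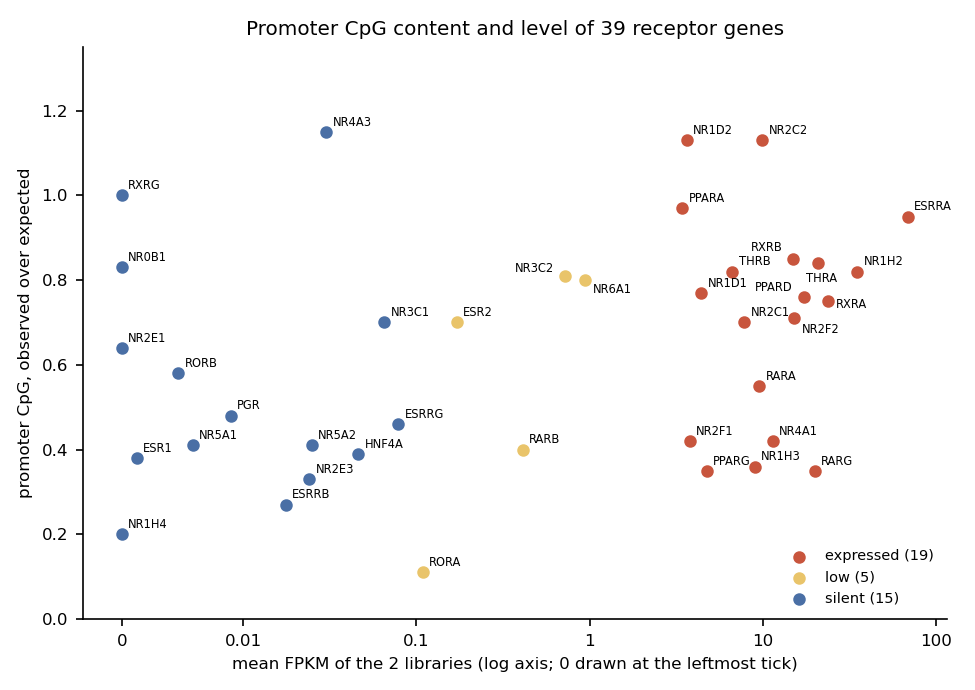
Observed over expected CpG of the 250 bases before the start (mean over the starts of a gene) against the mean FPKM on a log axis, for the 39 receptors with a promoter entry, coloured by level group. Most expressed receptors lie above 0.6 and most silent ones below, with RXRG, NR0B1 and NR4A3 high on the left and RARG, PPARG and NR1H3 low on the right.

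The other genes of receptor action were read from 14 lists of 155 genes in all, of which 92 averaged 1 FPKM or more and are called measured. The lists were chosen with earlier results of these data known. With Indocin 8 of these (8.70%) were 1.5-fold higher or more, against 2.19% of all genes, and 1 (1.09%) lower, against 0.744%. The 9 genes were NCOA7, ABCG1, SREBF1, TSC22D3, STC2, XBP1, NFIL3 and CYP2R1 on the higher side and CA12 on the lower. The median over the 92 was 0.01.

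The medians of the coactivators (0.03) and corepressors (-0.00) were close to that of all genes, with single members on both sides. NCOA7, a stress-responsive protein that also binds receptors, stood at 2.59 and 5.57 FPKM (0.87) and was the only 1 of 14 coactivators past 1.5-fold. Among all genes 2.19% were 1.5-fold higher and 0.744% lower. The p160 coactivators NCOA2 (0.33) and NCOA3 (0.14) were slightly higher, and the PGC1 family members PPRC1 (21.4 and 15.3 FPKM, -0.46) and PPARGC1B (-0.43) were lower. PPARGC1A, the coactivator of PPARG and ESRRA, was low at 0.320 and 0.314 FPKM. None of 12 corepressors passed 1.5-fold, with TBL1X (0.36), NCOR1 (0.24) and HDAC2 (-0.20) the furthest. The chaperones that hold steroid receptors ready for ligand were all 7 below 0, also after each rescaling, and none passed 1.5-fold. As deposited, 55.2% of all genes were below 0. The median of the 7 was -0.32, against -0.02 over all genes. FKBP5 (-0.39), FKBP4 (-0.37), STIP1 (-0.36) and HSP90AA1 (-0.32) were the lowest.

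The LXR and PPAR target lists did not share 1 direction. Of 13 targets of the LXR receptors 6 were measured, and 2 were at least 1.5-fold higher: the sterol exporter ABCG1 (5.65 and 10.6 FPKM, 0.81) and the lipogenic factor SREBF1 (89.1 and 192 FPKM, 1.10). Among all genes 2.19% were 1.5-fold higher and 0.744% lower. LPCAT3 stood at 75.1 and 95.3 FPKM (0.34) and APOC1 at -0.30. Of the 6, 5 were above 0 and only APOC1 below, also under either rescaling, where 55.2% of all genes were below 0 as deposited. The median of the measured LXR targets was 0.24, or 0.31 under either rescaling. ABCA1, the exporter that LXR induces in most cells, was under the minimum mean at 0.0658 and 0.121 FPKM. Of 18 targets of the PPAR receptors 7 were measured and none passed 1.5-fold, with 1 above 0 and 6 below, or 3 and 4 under either rescaling. HILPDA (-0.44), CPT1A (-0.38) and SLC25A20 (-0.38) were the furthest. The PPAR reporters ANGPTL4 (0.105 and 0.0963 FPKM) and PDK4 (0.379 and 0.338 FPKM) were under the minimum, and FABP4 was listed at 0 in both. The median of the measured PPAR targets was -0.17, or -0.10 with equal upper quartiles.

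Targets of the retinoic acid and vitamin D receptors were few. Of 10 retinoic acid targets 4 were measured, and DHRS3, a retinaldehyde reductase, stood at 21.9 and 16.8 FPKM (-0.36). CYP26A1, which degrades retinoic acid and is induced by it, was under the minimum at 0.248 and 0.0469 FPKM, and CYP26B1 had a ratio of 0.06. Of 15 genes of retinoid metabolism 7 were measured and none passed 1.5-fold as deposited, with RDH11 at 77.2 and 112 FPKM (0.53) and RDH10 at 37.1 and 28.8 FPKM (-0.36). RDH11 passed 1.5-fold under both rescalings. CYP24A1, the classical vitamin D target, was listed at 0 in both libraries, and the calcium channel TRPV6 stood at 3.42 and 4.62 FPKM (0.35). CAMP, an antimicrobial peptide gene induced by vitamin D, was under the minimum at 0.0445 and 0.716 FPKM (0.72), the highest ratio of that list. The vitamin D 25-hydroxylase CYP2R1 stood at 6.08 and 10.4 FPKM (0.69), and SLC16A10, a carrier of thyroid hormone and aromatic amino acids, at 6.43 and 4.03 FPKM (-0.56). HSD11B2, which inactivates cortisol, was measured at 24.0 and 21.0 FPKM (-0.18), and HSD11B1, which regenerates it, was listed at 0 in both.

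Most glucocorticoid target genes were measured, with NR3C1 silent. FKBP5 stood at 225 and 172 FPKM, TSC22D3 (GILZ) at 18.9 and 62.2 FPKM (1.67), ERRFI1 at 42.6 and 59.7 FPKM (0.48) and PER1 at 24.0 and 18.5 FPKM (-0.36). TSC22D3 was the only 1 of 10 past 1.5-fold, and the median was 0.03. Among all genes 2.19% were 1.5-fold higher and 0.744% lower. Of the estrogen targets STC2 (14.8 and 46.9 FPKM, 1.60) and XBP1 (0.78) were higher and CA12, a carbonic anhydrase, was lower (35.2 and 22.4 FPKM, -0.63), with ESR1 and PGR silent. CA12 did not pass 1.5-fold under either rescaling. STC2 and XBP1 are also stress response genes.

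Among 13 measured clock genes NFIL3, a transcriptional repressor, stood at 4.96 and 9.05 FPKM (0.75) and was the only 1 past 1.5-fold. Over all genes 2.19% were 1.5-fold higher and 0.744% lower. ARNTL (BMAL1), a gene that REV-ERB proteins repress, stood at 3.31 and 5.15 FPKM (0.51) and PER2 at 8.87 and 12.6 FPKM (0.47). PER3 stood at 14.4 and 9.29 FPKM (-0.58). The clock genes thus held values on both sides, with 7 above 0 and 6 below, or 9 and 4 under either rescaling. Time of harvest within the day is not given in the sources used here, and its part in these values was not tested. Of the bile acid targets SLC51A (7.32 and 9.36 FPKM, 0.32) was the measured one furthest from 0, and the xenobiotic targets CYP3A4 and CYP2B6 were listed at 0 in both libraries.

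**Figure D5:**
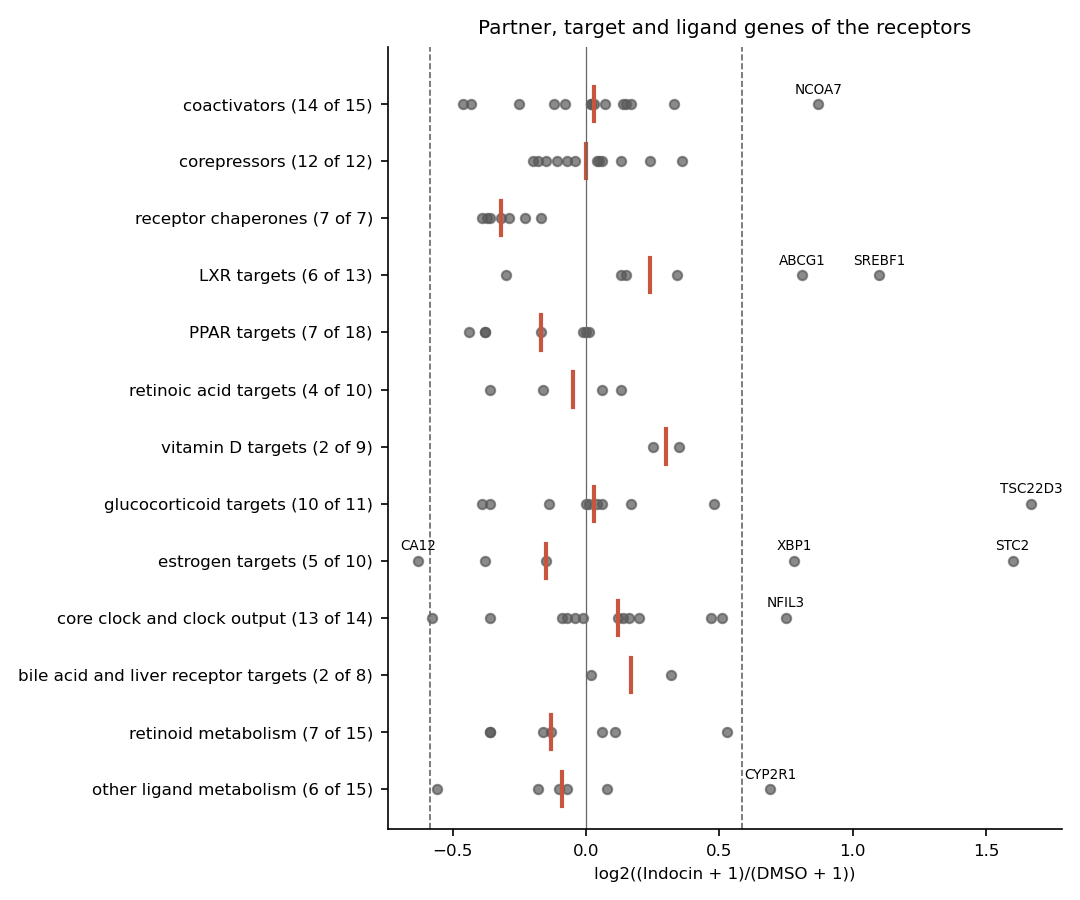
Log2 ratio of Indocin to DMSO FPKM (1 FPKM added) of the genes averaging 1 FPKM or more in each list with more than 1 such gene (points; measured of listed genes in parentheses), with the list median (red bar) and dashed lines at 1.5-fold. Genes past the lines are named: 8 lie on the right and CA12 on the left.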

How the data were processed

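Strand-keeping mRNA libraries were made from total RNA of 2 C4-2B MDVR cultures, per the labels' protocols. The deposited values were FPKM per gene symbol, per the file headers, made by the authors. Tool roles, versions, annotation and strand setting were not given in the sources used here. Per the submitters' processing notes the tools included StringTie, Cufflinks, Cuffnorm, TopHat and bcl2fastq, and GRCh37 and hg19 were named as builds. Each sample was read as 1 group of 1 library, with its group from the labelled treatment.

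Log2 ratios, classes and counts were computed in Python 3.11.15 with pandas 2.3.3 and numpy 2.4.6. The code was run on simulated data with changes larger than the 1.5-fold and 1.2-fold limits, so that run does not cover calls near these limits. A pseudocount of 1 FPKM was added, genes entered with a mean of at least 1 FPKM, and 2042 symbols of short RNA genes were left out. FPKM holds no read counts, so no count test, interval or floor could be given. Expressed receptors, and up to 4 members of each other list by size of ratio, were named, with fixed targets and coregulators. Values of 1 expressed receptor and of some other genes are not reported here, but enter the counts, sums and medians. All members, lists and tests were chosen with earlier results of these data known. Promoters came from RefSeq (GRCh38.p14) by symbol, and exons from GENCODE 29 (GRCh38). Alternatives covered the pseudocount, the filter, 3 scalings and short RNA genes.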

Additional observations from a re-analysis of the deposited data

How the results depend on the processing

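No receptor passed 1.5-fold or 2-fold in either direction under pseudocounts of 0.1 and 5 FPKM, no filter, a mean of at least 5 FPKM, centring, equal upper quartiles, equal sums or short RNA genes kept. With a pseudocount of 0.1 FPKM, NR1D1 (-0.56) and PPARG (0.56) came close to the 1.5-fold line. The settings were varied separately, and combinations of them were not tried. The number of expressed receptors was 22, and 24 with expression taken from 0.5 FPKM. Their median log2 ratio of -0.06 was -0.04 with a pseudocount of 5 FPKM, 0.00 over all 45 without a filter, -0.16 over 17 at a mean of at least 5 FPKM and -0.03 after centring. It turned to 0.01 with equal upper quartiles and 0.02 with equal sums, both shifting all genes up, from a median of -0.02 to 0.04 and 0.05. Past 1.2-fold, 4 receptors higher and 8 lower became 2 and 4 with a pseudocount of 5 FPKM, 2 and 6 at a mean of at least 5 FPKM and 5 and 3 with equal upper quartiles or sums. Of the partner, target and ligand genes, 8 past 1.5-fold higher became 4 with a pseudocount of 5 FPKM, and 1 lower became 3 with 0.1 FPKM and 0 with 5 FPKM, equal upper quartiles or equal sums. No paired analysis was possible because each group had 1 library and no test was run. The same design gives no leave-out and no error, and the unknown depth leaves the silent receptors without an interval.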

Other observations

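Some genes named after receptors lay outside the symbol pattern. NR1I3 (CAR), a xenobiotic receptor, stood at 1.83 and 1.42 FPKM (-0.22 as a log2 ratio), the DMSO library first in each pair, whereas NR1I2 (PXR) stood at 0.0390 and 0.0198 FPKM. The membrane progesterone-binding protein PGRMC1 stood at 71.8 and 63.3 FPKM, far above PGR, and PGRMC2 at 16.8 and 16.7 FPKM.

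Antisense transcripts of the receptor genes ranged from 0 to 3.16 FPKM. NR2F1-AS1 stood at 0.615 and 0.865 FPKM (0.21), next to NR2F1 at 4.52 and 3.09 FPKM (-0.43). THRB-AS1 stood at 0.460 and 0.673 FPKM (0.20), next to THRB at 5.80 and 7.56 FPKM (0.33). RARA-AS1 stood at 2.38 and 3.16 FPKM (0.30), next to RARA at 10.1 and 8.99 FPKM (-0.16). NR2F2-AS1 was at 0.0887 FPKM with DMSO and was listed at 0 with Indocin, next to NR2F2 at 16.8 and 13.5 FPKM (-0.30). HNF4A-AS1 was listed at 0 in both.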
